A study of Mus musculus with 17 samples.

Results

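Ppbp, Pf4, Cxcl1, Cxcl2 and Cxcl3, CXC chemokine genes of a single cluster on mouse chromosome 5, were followed here in dendritic cells given medium from living or dying tumor cells. They were grouped as attractants of neutrophils, a name that fits Pf4 less well, and the cluster's Cxcl5 is described as a neighbour. These 5 genes, of 31091 gene identifiers in the count table, were chosen by name with earlier results of debris against WT medium in view, though not all of them rose. The values of the debris media against WT medium are therefore given as a description, with no test.

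The cells were cDC1s and cDC2s, the cross-presenting and the CD4+ T-cell-oriented types of conventional dendritic cell, from spleens of female C57BL/6JRj mice bought at 8 weeks of age. All mice were given a subcutaneous B16-FLT3L tumor, which expands cDCs, and were killed once it could be felt, and spleens of at least 2 mice were pooled for each experiment. CD11c+ cells were kept for 6 h, with GM-CSF in every culture, in the total medium of wild-type TC-1 lung tumor cells (WT), of clonal TC-1-iBimS cells dying by apoptosis, or of clonal TC-1-iRIPK3 cells dying by necroptosis, all of them cultured with cumate for 24 h. cDC1s and cDC2s were then sorted for polyA RNA sequencing, with 3 samples in each of the 6 groups except for 2 in cDC2s with RIPK3 medium. The media differ in the transgene, in the clone and in the way of dying, which cannot be told apart, and nothing says that same-group samples came from separate mice, so p-values measure only the spread between these samples.

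CXC chemokines are small secreted proteins in which 2 cysteines are parted by 1 residue. Those with the residues glutamate-leucine-arginine (ELR) just before that motif bind the receptor CXCR2 and draw neutrophils along a gradient held by glycosaminoglycans. Cxcl1, Cxcl2 and Cxcl3 are quickly induced in many stimulated cells, macrophages and dendritic cells among them. Ppbp (CXCL7) and Pf4 (CXCL4) are best known as products of megakaryocytes that platelets store in their granules. Pf4 binds heparin strongly and is not a classical CXCR2 ligand.

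The coding stretch around the CXC motif shows how the members differ in the part that the receptor reads. It lies in coding exon 2 of all 5 genes on the plus strand of GRCm39, at chr5:90916929-90916961 for Ppbp, chr5:90920788-90920820 for Pf4, chr5:90934212-90934244 for Cxcl3, chr5:91039340-91039372 for Cxcl1 and chr5:91051986-91052018 for Cxcl2. The 3 codons before CXC are in capitals.
Ppbp: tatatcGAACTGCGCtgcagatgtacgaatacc
Pf4: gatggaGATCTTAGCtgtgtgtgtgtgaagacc
Cxcl3: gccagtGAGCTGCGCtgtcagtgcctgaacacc
Cxcl1: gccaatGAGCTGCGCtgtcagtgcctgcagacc
Cxcl2: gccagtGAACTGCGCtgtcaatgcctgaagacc
The codons of Ppbp, Cxcl1, Cxcl2 and Cxcl3 encode ELR, and those of Pf4 do not. Over the whole coding sequence Cxcl3 and Cxcl2 were 89.7% identical, Cxcl1 and Cxcl2 76.0%, Cxcl3 and Cxcl1 72.7%, Ppbp and Pf4 46.0%. Of all stretches of 54 bases, the read length, in its transcripts, Cxcl2 shared 5.63% with Cxcl3, and Cxcl3 shared 3.95% with Cxcl2 or other genes, while Ppbp, Pf4 and Cxcl1 shared none. Reads from the shared stretches could be split between Cxcl2 and Cxcl3, and the study's methods name the gene counting of STAR and the tool gensum without saying how such reads were treated.

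In order along the plus strand, Ppbp (ENSMUSG00000029372) spans chr5:90916371-90917930 and Pf4 (ENSMUSG00000029373) chr5:90918479-90922110. Cxcl3 (ENSMUSG00000029379) follows at chr5:90933962-90937459, Cxcl1 (ENSMUSG00000029380) at chr5:91039094-91040974 and Cxcl2 (ENSMUSG00000058427) at chr5:91051730-91053797. The promoters below are shown because genes that moved together and genes that did not can be compared in them. They are RefSeq windows (table of build GRCm38.p6) that each matched GRCm39 exactly and once, printed from base -110 to base -11 of the RefSeq start site, with matches to the NF-kB consensus and to the TATA box (TATAAA) in capitals.
Ppbp, chr5:90916267-90916366: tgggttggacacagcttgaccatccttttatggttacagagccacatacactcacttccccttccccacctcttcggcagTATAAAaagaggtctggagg
Pf4, chr5:90920184-90920283: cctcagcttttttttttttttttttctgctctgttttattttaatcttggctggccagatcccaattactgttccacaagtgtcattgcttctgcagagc
Cxcl3, chr5:90933850-90933949: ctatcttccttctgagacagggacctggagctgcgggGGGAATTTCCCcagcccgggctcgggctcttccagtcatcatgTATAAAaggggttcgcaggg
Cxcl1, chr5:91038994-91039093: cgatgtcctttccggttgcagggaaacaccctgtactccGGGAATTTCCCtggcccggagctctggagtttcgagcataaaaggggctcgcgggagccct
Cxcl2, chr5:91051648-91051747: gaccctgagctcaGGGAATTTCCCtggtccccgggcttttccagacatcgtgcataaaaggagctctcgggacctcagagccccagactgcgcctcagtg
Cxcl1, Cxcl2 and Cxcl3 carry the same run GGGAATTTCCC, which matches the consensus of NF-kB, the transcription factor of inflammatory gene induction, on both strands. It begins at base -71 in Cxcl1, -97 in Cxcl2 and -73 in Cxcl3. Over the full windows of 300 bases, searched on both strands, 4.53% of 32544 promoters held that consensus and 13.6% held TATAAA. Ppbp held TATAAA at -30 and again at -8, and an AP-1 match (TGANTCA, in 7.79% of promoters) at -204. Pf4 held a C/EBP match (TTGCNNAA, in 10.8%) at -212 and a GATA match (AGATAA, in 11.2%) 36 bases after its RefSeq start. That start lies inside the Pf4 span given above, downstream of the annotated start from which distances are taken. No member window held the antioxidant response element letters TGACNNNGC, which 12.4% of promoters held. A match describes letters in the window and is no measure of binding.

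Library depth was 16095159 to 21645289 counts. The sorted types carried their markers, with 8 cDC1 genes summing to 1400 to 1730 CPM in cDC1s against 98.8 to 132 CPM in cDC2s, and 8 cDC2 genes to 2.63 to 4.13 CPM in cDC1s against 287 to 375 CPM in cDC2s. CPM here are counts scaled to library size, with the TMM factors of edgeR. 12 neutrophil genes summed to 1.58 to 2.83 CPM in cDC1s, and in cDC2s to 3.84 to 5.61 CPM with WT, 2.31 to 2.80 CPM with BimS and 2.75 to 3.49 CPM with RIPK3. The library cDC2 WT replicate 3 stood apart in platelet genes, as described with Ppbp and Pf4. Of 16 genes listed for adherent TC-1 cells, 15 were in the table, and their sum was 56.8 to 66.8 CPM in cDC1s with WT medium, 115 to 123 CPM with BimS and at most 134 CPM with RIPK3. In cDC2s it was 118 to 135, 239 to 287 and 236 to 242 CPM. Lamc1, a laminin chain, was at 52.3, 106 and 114 CPM in cDC1s with WT, BimS and RIPK3 media, and Thbs1, thrombospondin, at 49.2, 144 and 138 CPM in cDC2s. Of the epithelial markers in that list, Krt7 and Krt8 had no more than 6 counts in any library. Krt18 had 14 to 26 counts in cDC1s with WT, 14 to 16 with BimS and 12 to 18 with RIPK3, and Epcam 14 to 28 counts over all groups. Cdh1 (E-cadherin) was at 1 to 9 counts in cDC1s, and in cDC2s at 32.7 ± 4.39, 25.6 ± 7.43 and 20.4 ± 5.19 CPM (SD) with WT, BimS and RIPK3 media. 14 genes of monocytes and macrophages summed to 15.5 to 19.9, 9.83 to 12.6 and 12.6 to 14.8 CPM in cDC1s with WT, BimS and RIPK3 media, and to 54.3 to 65.9, 49.7 to 62.4 and 43.7 to 50.3 CPM in cDC2s. The part of these cells in the chemokine values was not tested.

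Cxcl3, an ELR chemokine, was the most abundant member in both cell types. In cDC1s it stood at 77.0, 66.4 and 62.6 CPM in WT replicates 1 to 3, at 563, 441 and 472 CPM with BimS medium and at 732, 648 and 721 CPM with RIPK3 medium. Every debris library lay far above every WT library, and the RIPK3 libraries lay above all BimS libraries. Among all genes tested in cDC1s, 15.6% lay higher without overlap with BimS and 14.9% with RIPK3, and in cDC2s 11.3% and 17.7%, shares that are given for scale since these contrasts chose the genes. Both debris media were set against the same WT libraries. The fitted change against WT was 2.84 ± 0.12 on the log2 scale (SE, n = 3 per group), or 7.17-fold, with BimS and 3.35 ± 0.12, or 10.2-fold, with RIPK3. In cDC2s Cxcl3 stood at 25.6, 25.4 and 29.7 CPM with WT, 259.5, 220.4 and 271.5 CPM with BimS and 303.7 and 284.0 CPM with RIPK3. The cDC2 debris libraries lay above every cDC2 WT library and below every cDC1 debris library. The cDC2 change was 3.22 ± 0.10 with BimS (9.30-fold, n = 3) and 3.44 ± 0.10 with RIPK3 (10.9-fold, n = 2). In bulk samples fewer cells expressing a gene and less RNA per cell cannot be told apart.

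Cxcl2 (MIP-2) is an ELR chemokine that myeloid cells release early in inflammation. In cDC1s its level was 17.1, 17.1 and 15.5 CPM with WT, 130.1, 113 and 105 CPM with BimS and 151, 133 and 127 CPM with RIPK3. WT libraries lay below all debris libraries, while BimS and RIPK3 libraries overlapped. The change against WT was 2.81 ± 0.09 (7.01-fold) with BimS and 3.05 ± 0.09 (8.25-fold) with RIPK3. In cDC2s Cxcl2 was at 14.2, 13.3 and 12.7 CPM with WT, 134, 111 and 123 CPM with BimS and 153 and 123 CPM with RIPK3. These levels were close to those of cDC1s, and the change was 3.19 ± 0.11 (9.11-fold) with BimS and 3.35 ± 0.11 (10.2-fold) with RIPK3.

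Cxcl1 (KC), the ELR chemokine between Cxcl3 and Cxcl2 on the chromosome, was close to absent. Counts were 2, 0 and 2 in cDC1s with WT, 3, 2 and 0 with BimS and 2, 3 and 1 with RIPK3. In cDC2s they were 2, 0 and 3 with WT, 8, 1 and 0 with BimS and 9 and 0 with RIPK3. All cDC1 libraries and the cDC2 WT libraries were at or under 3 counts, the limit that a count of 0 allows, so no fold is given, and groups overlapped in both cell types. Cxcl1 carries the same NF-kB run in its promoter as Cxcl2 and Cxcl3, whose libraries held 232 to 2994 and 442 to 14463 counts.

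**Figure D1:**
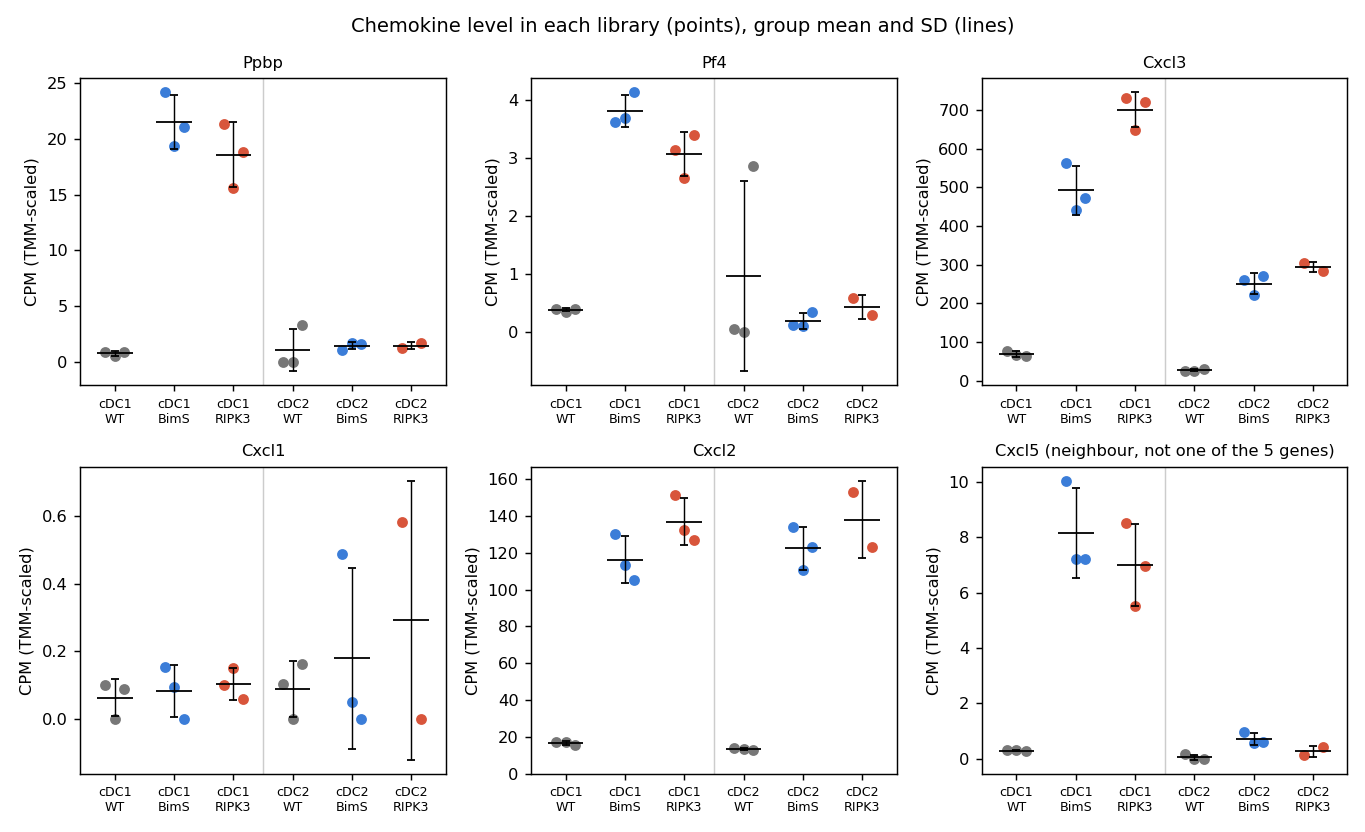
Level in CPM (y axis, linear, TMM-scaled, a different range in each panel) of the 5 genes and of the neighbour Cxcl5 in each library (points) of the 6 groups (x axis), with group means and SD as lines. Cxcl2 and Cxcl3 were high with debris in both cell types, Ppbp, Pf4 and Cxcl5 in cDC1s, and the single cDC2 WT library high in Ppbp and Pf4 is replicate 3.

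Ppbp showed the largest fold of the members in cDC1s. Its counts were 18, 11 and 21 with WT, 474, 414 and 408 with BimS and 422, 311 and 326 with RIPK3. As CPM these were 0.800 ± 0.209 (SD, n = 3), 21.5 ± 2.43 and 18.6 ± 2.87. WT libraries lay far below all others, and the debris groups overlapped. The change against WT was 4.73 ± 0.17 (26.5-fold) with BimS and 4.51 ± 0.18 (22.9-fold) with RIPK3.

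Pf4, whose annotated start lies 2.1 kb after that of Ppbp, followed at lower counts. There were 8, 7 and 9 counts in cDC1s with WT, 71, 79 and 80 with BimS and 62, 53 and 59 with RIPK3. The 3 media gave 3 separate ranges, with BimS on top. The change was 3.28 ± 0.26 (9.70-fold) with BimS and 2.96 ± 0.27 (7.78-fold) with RIPK3. Ppbp and Pf4 thus share a direction with Cxcl2 and Cxcl3 in cDC1s by the choice of the genes. In these comparisons 13.2% (BimS vs WT) and 16.5% (RIPK3 vs WT) of all 19513 genes tested in cDC1s passed an adjusted p of 0.05 (edgeR). In cDC2s the shares were 7.01% and 7.21% of 19239 genes.

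The 14 other genes of a platelet and megakaryocyte list in the table were read beside Ppbp and Pf4 in cDC1s. Their summed level was 23.9 to 25.1 CPM with WT, 25.2 to 26.9 CPM with BimS and 23.9 to 26.5 CPM with RIPK3. Gp1ba, Gp6, Gp9 and Gata1, which encode platelet glycoproteins and the megakaryocyte transcription factor, were at 0 counts in all 3 cDC1 BimS libraries, and Gp6, Gp9 and Gata1 also in all 3 RIPK3 libraries. Other list genes were present in every medium, such as Clec1b with 29 to 49 counts with WT and 33 to 49 with BimS, and Itga2b with 82 to 110 and 74 to 95. Selp (P-selectin), also made by endothelial cells, was at 27 to 50 counts with WT, 55 to 75 with BimS and 34 to 43 with RIPK3, so that its BimS libraries lay above its WT libraries. The part of platelet RNA in the cDC1 values was not tested.

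In cDC2s Ppbp counts were 0, 0 and 61 with WT, 18, 34 and 27 with BimS and 19 and 29 with RIPK3. Pf4 counts were 1, 0 and 53 with WT, 2, 2 and 6 with BimS and 9 and 5 with RIPK3. A single library, WT replicate 3, was the highest of all cDC2 libraries for both genes, so WT and debris groups overlapped. That library was also the highest of 8 cDC2 libraries for 13 of the 14 platelet markers, which summed to 87.7 CPM there against 59.7 to 70.6 CPM in the other 7. It held 12 counts of Gp1ba, 11 of Gp6, 6 of Gp9, 18 of Treml1 and 6 of Gata1, where the other cDC2 libraries held 0 to 2. The part of platelet RNA in the Ppbp and Pf4 counts of that library was not tested.

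Without WT replicate 3 the other WT libraries held no Ppbp count. Against a floor of 3 counts per library (0.163 CPM), Ppbp was then at least 9.07-fold higher with BimS (1.48 ± 0.337 CPM, n = 3) and at least 8.98-fold higher with RIPK3 (1.46 ± 0.333 CPM, n = 2). Pf4 stayed at 2 to 9 counts in the cDC2 debris libraries, or 0.194 ± 0.142 CPM with BimS and 0.438 ± 0.204 CPM with RIPK3. The cDC1 debris libraries held 311 to 474 counts of Ppbp, above the 0 to 61 of all cDC2 libraries. They held 53 to 80 counts of Pf4, above every cDC2 library except WT replicate 3, which at 53 counts overlapped them.

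**Figure D2:**
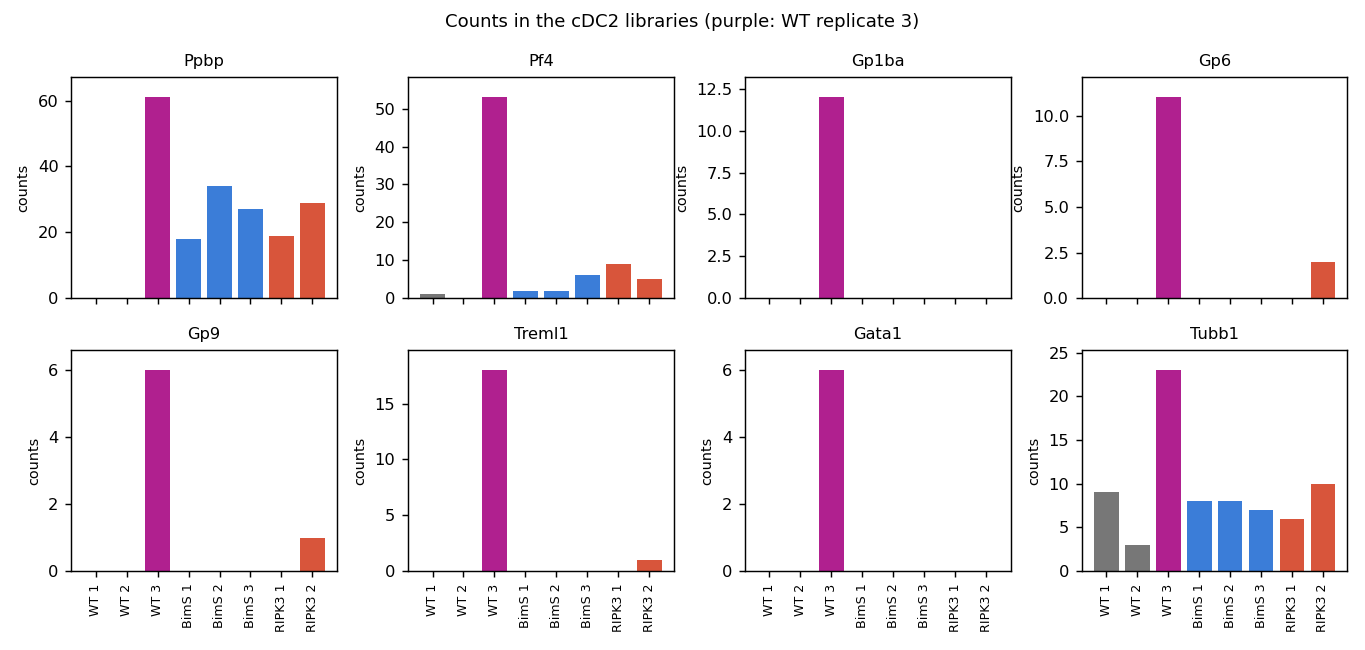
Counts (y axis, from 0) of Ppbp, Pf4 and 6 platelet or megakaryocyte genes in each of the 8 cDC2 libraries (x axis, medium and replicate). WT replicate 3, in purple, is the highest bar in every panel, with 61 counts of Ppbp and 53 of Pf4.

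Levels of different genes were compared per kb of exon. In cDC1s with RIPK3 medium the order was Cxcl3 at 200.2 ± 12.9, Cxcl2 at 66.2 ± 6.25, Ppbp at 14.3 ± 2.21, Pf4 at 1.24 ± 0.151 and Cxcl1 at 0.0548 ± 0.0247 CPM per kb (SD, n = 3), with no neighbours overlapping. By this measure Cxcl3 ranked 132 of 23871 detected genes there and 1751 of 24434 with WT medium. Cxcl2 ranked 478 and 3664, Ppbp 2364 and 10435, and Pf4 8597 and 13733. In cDC2s with RIPK3 medium Cxcl3 (84.0 ± 3.98) and Cxcl2 (66.7 ± 10.2 CPM per kb, n = 2) led, at ranks 382 and 526 of 21584. With WT medium Cxcl3 and Cxcl2 of cDC2s were closer, at 7.68 ± 0.707 and 6.48 ± 0.348 CPM per kb. Ppbp (1.13 ± 0.256), Pf4 (0.178 ± 0.083) and Cxcl1 (0.155 ± 0.219) stood far below in cDC2s with RIPK3 medium, the last 2 within each other's spread.

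Necroptotic and apoptotic debris were compared directly, a contrast that the choice of the genes did not use. In cDC1s Cxcl3 was higher with RIPK3 than with BimS by 0.51 ± 0.11 on the log2 scale (95% confidence interval 0.26 to 0.76, adjusted p = 0.045 by edgeR's quasi-likelihood test, higher in 3 of 3 libraries). It was the only member of the 5 called there, where 4.15% of all genes were called, 1.94% as higher. The call is narrow in this fit. Over 8 other settings (edgeR, DESeq2 or limma) the adjusted p ran from 3.56e-18 to 0.052, and 7 kept the call. The setting that lost it was RLE size factors. On leaving out single libraries the adjusted p ran from 5.29e-06 to 0.173, and 5 of 9 fits kept the call. It was lost without WT replicate 2 (adjusted p = 0.092), BimS replicate 3 (0.173), RIPK3 replicate 1 (0.134) or RIPK3 replicate 3 (0.163). Cxcl2 differed by 0.24 ± 0.07 (0.08 to 0.39, adjusted p = 0.086) and was called with the replicate number as a block (0.24, adjusted p = 5.19e-05, with 8.87% of genes called). Over all other settings of that result the adjusted p ran from 0.0013, without BimS replicate 1, to 0.610, and it was also called without RIPK3 replicate 3 (0.036) and with no filter on low counts (0.0013).

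Ppbp and Pf4 pointed the other way in the same libraries, without passing the test. The RIPK3 minus BimS difference in cDC1s was -0.21 ± 0.10 for Ppbp (-0.42 to 0.00, adjusted p = 0.328, edgeR) and -0.32 ± 0.18 for Pf4 (-0.68 to 0.04, adjusted p = 0.414). Pf4 libraries did not overlap, a pattern that 10.0% of genes showed in that direction, and 9.16% in the direction of Cxcl3.

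In cDC2s none of the members differed between RIPK3 and BimS at the threshold, where 0.379% of genes were called. DESeq2 and limma gave no call either. At an unadjusted p under 0.05 there was 1 member in edgeR, Cxcl3, at 0.22 ± 0.10 (0.02 to 0.43, adjusted p = 0.541, edgeR). Its libraries did not overlap, as for 14.3% of genes in that direction. With the replicate block in edgeR Cxcl3 was called (0.29, adjusted p = 5.06e-07), as was Pf4 (3.81, adjusted p = 0.000146), in a fit that called 14.3% of genes. Pf4 had 2, 2 and 6 counts with BimS and 9 and 5 with RIPK3. RIPK3 has no replicate 3 in cDC2s, so the block's replicate 3 term came from WT, at 53 counts, and BimS. Leaving out single libraries, which for RIPK3 leaves an arm of 1, gave Pf4 differences of 0.60 to 1.89. Cxcl2 differed by 0.16 ± 0.11 (-0.06 to 0.38, adjusted p = 0.701). Ppbp differed by -0.02 with an interval of -3.52 to 3.47 (adjusted p = 0.997), which narrowed to -0.72 to 0.67 without WT replicate 3 (adjusted p = 0.988, with 1.15% of genes called). Pf4 differed by 1.15 (-4.12 to 6.42, adjusted p = 0.937), and by an interval of -0.41 to 2.71 without that library (adjusted p = 0.605).

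Whether the RIPK3 minus BimS difference was itself unlike between cDC1s and cDC2s was tested across all 17 libraries. No member passed in edgeR, in DESeq2 or in limma, 0 passed in edgeR at an unadjusted p under 0.05, and 0.0314% of 19082 genes were called. The estimate for Cxcl3 was 0.28 ± 0.14 (-0.01 to 0.57, adjusted p = 0.985) and for Cxcl2 0.06 ± 0.13 (-0.21 to 0.34, adjusted p = 1.00). For Ppbp it was -0.19 (-2.52 to 2.13) and for Pf4 -1.48 (-5.41 to 2.46), and without cDC2 WT replicate 3 the intervals narrowed to -0.85 to 0.46 and to -2.73 to -0.21. That Pf4 interval lies below 0, at an unadjusted p of 0.023 and an adjusted p of 0.775 (edgeR).

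Before any debris, in WT medium, Cxcl3 was higher in cDC1s than in cDC2s by 1.35 ± 0.10 (1.14 to 1.57, adjusted p = 1.26e-10, edgeR, in 3 of 3 libraries). Cxcl2 was higher by 0.31 ± 0.11 (0.08 to 0.53, adjusted p = 0.023), again with no overlap of libraries. In this comparison 46.2% of all genes were called, 22.5% as higher in cDC1s, and 25.6% had cDC1 libraries above all cDC2 libraries. The WT libraries also entered the folds by which the genes were chosen. The Cxcl2 call was lost on leaving out cDC1 WT replicate 1 (adjusted p = 0.064) or 2 (0.065), or cDC2 WT replicate 2 (0.054) or 3 (0.113). Ppbp (-0.45, adjusted p = 0.756) and Pf4 (-1.32, adjusted p = 0.345) hung on cDC2 WT replicate 3, and with all libraries kept the limma fits turned their direction (1.40 to 2.11 for Ppbp and 0.42 to 0.91 for Pf4, adjusted p from 0.196 to 0.748). Without it Ppbp was at least 4.91-fold higher in cDC1s, against the floor. Pf4 was at 7 to 9 counts in cDC1s against 1 and 0 in the cDC2 WT libraries that remain. The library left out holds the high counts of these same genes, so this comparison is a description, with no test.

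**Figure D3:**
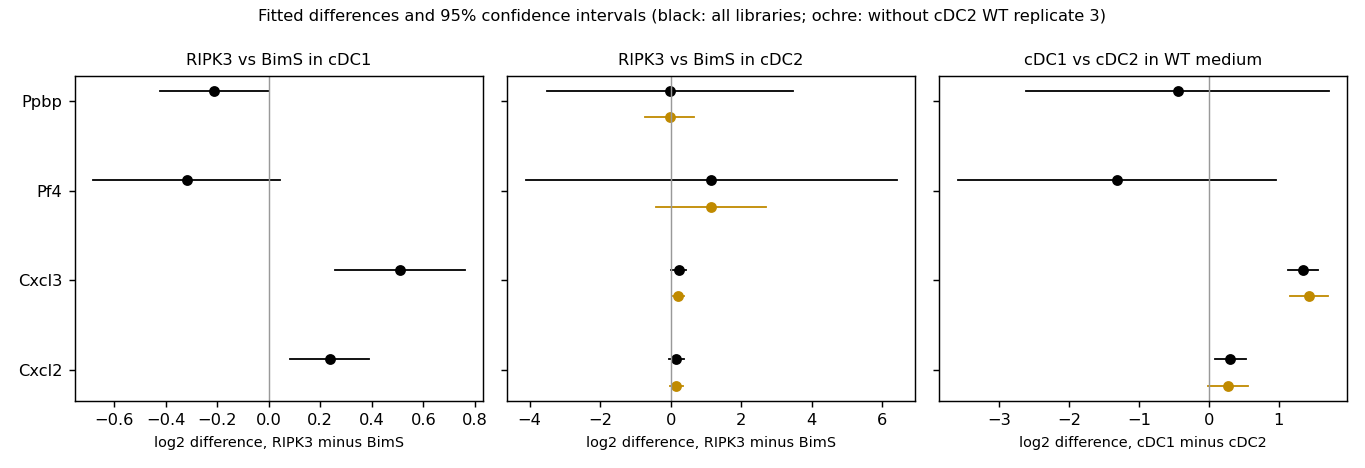
Fitted log2 difference (x axis, a different range in each panel) with its 95% confidence interval for Ppbp, Pf4, Cxcl3 and Cxcl2 in RIPK3 vs BimS in cDC1s, RIPK3 vs BimS in cDC2s and cDC1 vs cDC2 in WT medium; black from all libraries, ochre without cDC2 WT replicate 3, which is not drawn for Ppbp and Pf4 in the last panel. Cxcl3 lies above 0 in all panels, from 0.22 to 1.35 in black and from 0.22 to 1.43 in ochre. The Ppbp interval in cDC2s narrows without that library.

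The genes around the members were read along the chromosome. Within 300 kb of the first or last member the annotation holds 33 genes, of which 16 were in the table and 10 passed the filter on low counts. Cxcl5 (LIX), an ELR chemokine gene at -9.2 kb from the start of Ppbp, was at 6, 6 and 6 counts in cDC1s with WT, 197, 154 and 140 with BimS and 168, 110 and 121 with RIPK3. Its change of 4.78 ± 0.26 (adjusted p = 4.41e-16, edgeR) and 4.56 ± 0.27 (adjusted p = 2.56e-15) stood beside 4.73 and 4.51 for Ppbp. In cDC2s Cxcl5 was at 3, 0 and 0 counts with WT, 16, 11 and 10 with BimS (adjusted p = 0.0061) and 2 and 7 with RIPK3 (adjusted p = 0.239). Cxcl5 overlaps an antisense transcript in the annotation, and 20.7% of its stretches of 54 bases occur in transcripts of other genes.

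Outside the chemokines, 3 neighbours were called in cDC1s with both debris media, where 13.2% and 16.5% of all genes were. Rassf6, a RAS-association domain gene at -168.4 kb from Ppbp, rose in cDC1s by 0.77 with BimS (adjusted p = 0.0052, edgeR) and 1.20 with RIPK3 (adjusted p = 8.60e-06). In cDC2s it had means of only 0.088, 0.197 and 0.452 CPM with WT, BimS and RIPK3. Its cDC2 changes of 1.03 and 2.25 did not pass the test (adjusted p = 0.623 and 0.142, edgeR). Mthfd2l, a mitochondrial folate enzyme 162.5 kb after Ppbp, rose in cDC1s by 1.30 (adjusted p = 0.00085) and 1.09 (adjusted p = 0.0060), and in cDC2s by 1.39 with BimS (adjusted p = 0.027). Its cDC2 value with RIPK3, 1.08, did not pass the test (adjusted p = 0.167). Areg (amphiregulin), an EGF receptor ligand 371.1 kb after Ppbp, rose in cDC1s by 0.73 (adjusted p = 0.045) and 1.66 (adjusted p = 1.15e-06), and in cDC2s by 0.83 (adjusted p = 5.04e-05) and 1.36 (adjusted p = 3.11e-07). Areg was also higher with RIPK3 than with BimS in cDC1s, by 0.93 (adjusted p = 0.0055). Afp had at most 9 counts in any library, and its changes did not pass the test. Epgn and Ereg, EGF receptor ligands beside Areg, had no more than 2 counts in any library.

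**Figure D4:**
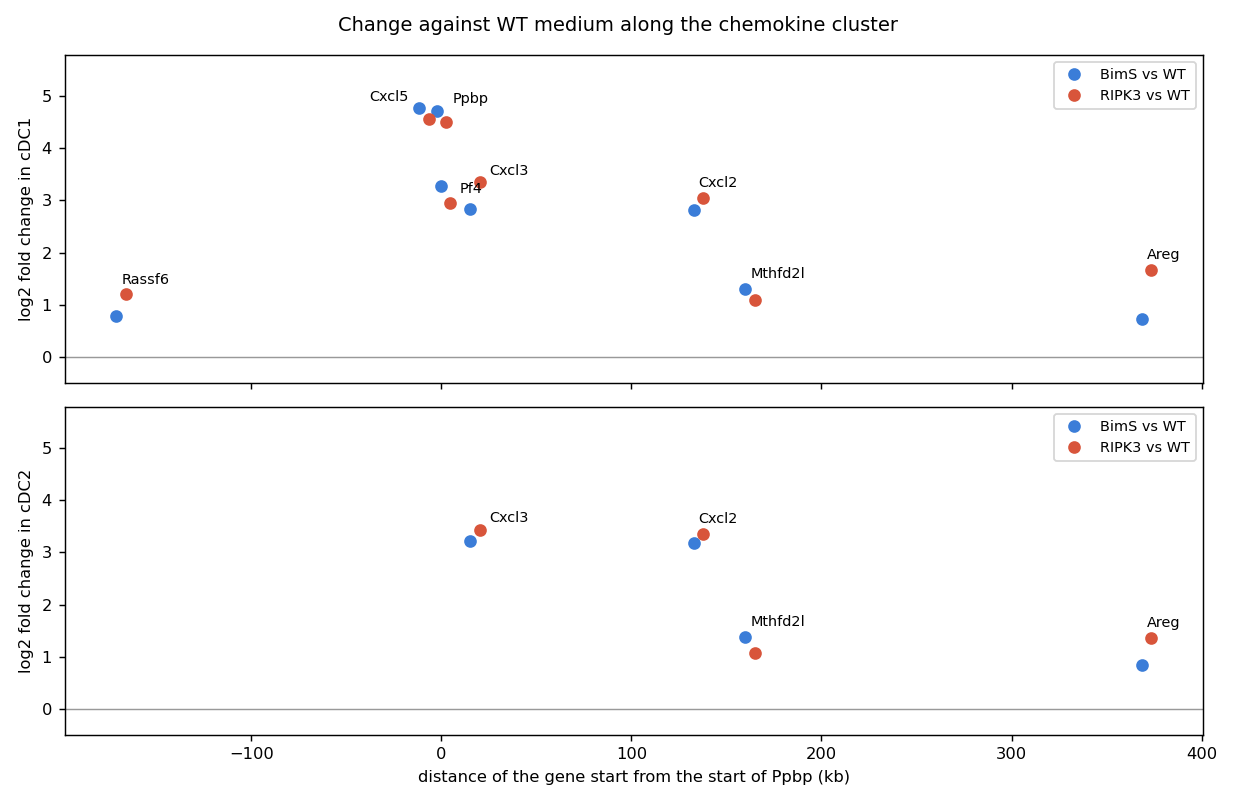
Fitted log2 fold change against WT medium (y axis) of genes around the cluster by the distance of their start from that of Ppbp (x axis, kb), in cDC1s (top) and cDC2s (bottom), BimS in blue and RIPK3 in red, each pair of points drawn slightly apart sideways. Left out are Cxcl1 and Afp, at single counts, and in cDC2s also Ppbp, Pf4, Cxcl5 and Rassf6, which rest on few counts or on 1 library; Cxcl5 and Ppbp stand highest in cDC1s, at 4.51 to 4.78.

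Of 97 genes listed for the pathway of these chemokines in 7 groups, 92 were in the table. The lists were drawn up with earlier results of these data known, and the share over all genes includes genes of few counts. The shares are therefore set side by side for scale only. In cDC1s 15 rose and 11 fell of 78 tested with BimS against WT (33.3% called, against 13.2% of all genes), and 15 rose and 13 fell with RIPK3 (35.9% against 16.5%). In cDC2s 12 rose and 2 fell of 81 with BimS (17.3% against 7.01%), and 15 rose and 4 fell with RIPK3 (23.5% against 7.21%). RIPK3 against BimS gave 7 higher and 3 lower in cDC1s (12.8% against 4.15%), and 3 higher and 1 lower in cDC2s (4.94% against 0.379%). All these counts hung on the fit. Over 8 other settings those of cDC1s ran from 16 to 37 (BimS against WT), 24 to 35 (RIPK3 against WT) and 6 to 15 (RIPK3 against BimS). In cDC2s, in the same order, they ran from 11 to 39, 13 to 33 and 2 to 25. The highest cDC2 counts came with the replicate block, where 14.3% of all genes were called for RIPK3 against BimS. Over the 7 lists pooled, the median change in each comparison lay between 0.02 and 0.14 on the log2 scale, against medians over all genes from -0.02 to 0.00.

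Among other CXC ligands, Cxcl5 was the single gene that rose in cDC1s, 1 of 6 tested with either debris. The CXCR3 ligands Cxcl9, Cxcl10 and Cxcl11 attract T cells and lack ELR. With BimS in cDC1s Cxcl9 (-0.18, adjusted p = 0.068) and Cxcl10 (-0.33, adjusted p = 0.101) did not pass the test. Cxcl9 fell by 0.57 and Cxcl10 by 0.69 in cDC1s with RIPK3 (adjusted p = 2.09e-08 and 0.00021, edgeR), from 60.3 ± 0.752 to 40.7 ± 3.75 CPM and from 8.41 ± 1.22 to 5.17 ± 0.479 CPM. In cDC2s Cxcl10 fell by 0.53 with BimS (adjusted p = 0.011) and by 1.29 with RIPK3 (adjusted p = 1.08e-05), and was lower with RIPK3 than with BimS by 0.76 (adjusted p = 0.041). Cxcl9 did not pass in cDC2s (adjusted p = 0.641 and 0.859, edgeR), nor Cxcl11 against WT in either cell type (adjusted p from 0.198 to 0.589). Cxcl15, Cxcl14 and Cxcl17 were not analysed here.

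The CXCR1 and CXCR2 receptor genes were nearly silent in the cells themselves. Cxcr1 had at most 1 count in any library, and Cxcr2, the ELR receptor, 0 to 5 counts in cDC1s and 1 to 9 in cDC2s. Of 4 genes of this group tested in cDC2s, 1 rose: Ccr1, a receptor mainly of CC chemokines, from 6.44 ± 0.575 CPM with WT by 0.80 with BimS (adjusted p = 0.00033) and 0.78 with RIPK3 (adjusted p = 0.0012). In cDC1s Ccr1 had 1 to 8 counts, and its change of 2.11 with BimS did not pass the test (adjusted p = 0.064).

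Proteoglycans and proteases that hold or cut these chemokines changed in both directions, with 3 higher and 3 lower of 12 tested in cDC1s with BimS and 2 and 2 with RIPK3. Ext1, an enzyme that extends heparan sulfate chains, rose in cDC1s by 0.60 (adjusted p = 1.77e-10) and 0.68 (adjusted p = 5.93e-12), and in cDC2s by 0.54 (adjusted p = 0.00052) and 0.35 (adjusted p = 0.036). Dpp4, a protease that trims chemokine ends, fell in cDC1s by 0.43 (adjusted p = 1.66e-08) and 0.66 (adjusted p = 4.77e-13), and in cDC2s by 0.62 (adjusted p = 0.00016) and 0.73 (adjusted p = 0.00011). Srgn (serglycin), the granule proteoglycan that binds Pf4 in platelets, rose in cDC1s by 0.16 (adjusted p = 0.040) and 0.34 (adjusted p = 6.42e-06). Plau, the urokinase protease, rose in cDC1s with BimS by 1.18 (adjusted p = 0.0011), stood at 0.01 with RIPK3 (adjusted p = 0.989), and was lower with RIPK3 than with BimS by 1.17 (adjusted p = 0.0054). In cDC2s Mmp12, the macrophage metalloelastase, rose by 1.34 (adjusted p = 0.00065) and 0.97 (adjusted p = 0.011).

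All 19 genes listed for the transcription of these chemokines were tested, most of them activating factors, with the inhibitor Nfkbia and the corepressor Trim28 among them. In cDC1s 5 rose and 4 fell with BimS and 6 rose and 4 fell with RIPK3, and in cDC2s 3 rose with BimS and 5 with RIPK3. Cebpb (C/EBP beta) rose in cDC1s from 27.1 ± 3.36 CPM with WT by 1.36 with BimS (adjusted p = 0.0017, edgeR) and 1.75 with RIPK3 (adjusted p = 0.00032), and in cDC2s by 1.48 (adjusted p = 0.012) and 1.84 (adjusted p = 0.0058). Fosl1, an AP-1 subunit, rose in cDC1s by 2.75 and 3.12 (adjusted p = 3.13e-12 and 3.99e-14) from 11 to 18 counts with WT, and in cDC2s by 1.28 and 1.79 (adjusted p = 4.08e-05 and 1.17e-06). Atf3, a stress-induced factor, rose in cDC1s by 0.57 and 1.15 (adjusted p = 3.12e-10 and 1.37e-18). It was higher with RIPK3 than with BimS in both cDC1s (0.59, adjusted p = 3.31e-09) and cDC2s (0.77, adjusted p = 0.011), as was Fos, an AP-1 subunit, by 0.42 (adjusted p = 2.01e-06) and 0.60 (adjusted p = 0.0026). Jun, its partner, was higher with RIPK3 than with BimS in cDC1s by 0.42 (adjusted p = 2.41e-05). Of the 8 listed genes of NF-kB and its regulators, 3 fell in cDC1s with BimS (Nfkb1, Nfkbiz and Bcl3) and 3 with RIPK3 (Nfkb1, Rel and Bcl3), and the other 5 did not pass, among them Rela (0.11 with both, adjusted p = 0.125 and 0.106) and Nfkb2 (0.11 and 0.07, adjusted p = 0.121 and 0.377). Chosen after its values were seen, Nfkb1 fell in cDC1s by 0.34 with BimS (adjusted p = 3.01e-07) and 0.22 with RIPK3 (adjusted p = 0.00037).

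Of 14 factors that control the decay of these short-lived mRNAs, 3 rose and 2 fell in cDC1s with BimS. That was 35.7%, against 13.2% of all genes. With RIPK3 1 rose and 3 fell (28.6% against 16.5%). In cDC2s 1 rose and 0 fell with BimS (7.14% against 7.01%), and 1 and 1 with RIPK3 (14.3% against 7.21%). Zfp36 (tristetraprolin), which targets AU-rich mRNAs for decay, rose in cDC2s by 0.30 with BimS (adjusted p = 0.014) and 0.38 with RIPK3 (adjusted p = 0.0047). Its relative Zfp36l1 fell in cDC1s by 0.50 with both (adjusted p = 0.0052 and 0.0046). Zc3h12c rose in cDC1s with BimS by 0.60 (adjusted p = 0.028), while Zc3h12d, of the same RNase family, fell by 0.42 with BimS (adjusted p = 0.00064) and 0.72 with RIPK3 (adjusted p = 1.04e-07).

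Of cytokines and receptors that act upstream, 3 rose and 2 fell of 15 tested in cDC1s with BimS, and 3 rose and 1 fell with RIPK3. In cDC2s 3 of 14 rose with BimS and 5 with RIPK3. Csf2ra, a chain of the receptor for GM-CSF, which all cultures received, rose in cDC1s by 0.40 (adjusted p = 9.09e-07) and 0.29 (adjusted p = 0.00010). Il6 fell in cDC1s with BimS by 0.49 (adjusted p = 5.81e-07) and rose in cDC2s with RIPK3 by 0.72 (adjusted p = 0.00011), and was higher with RIPK3 than with BimS in cDC1s (0.51, adjusted p = 4.27e-06) and cDC2s (0.50, adjusted p = 0.043). Il1rn, the antagonist of IL-1, rose in cDC2s by 0.51 (adjusted p = 0.00051) and 0.40 (adjusted p = 0.010). Osm (oncostatin M) rose with RIPK3 in cDC1s (0.70, adjusted p = 0.0028) and cDC2s (0.63, adjusted p = 0.0011). Il17a and Csf2 were not analysed here.

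Of genes of other neutrophil attractants, a list that also holds enzymes and receptors of lipid attractants, 2 rose and 1 fell of 10 tested in cDC1s with RIPK3. With BimS edgeR called 0 of 10 in cDC1s (5 at an unadjusted p under 0.05) and 0 of 11 in cDC2s (4 unadjusted). DESeq2 called 0 in both, the limma fits 0 to 2, and the replicate block 3 and 5. Ccl3 (MIP-1 alpha) rose by 1.52 (adjusted p = 0.00042) from 12 to 20 counts to 30 to 58 counts, and Alox5ap, the activating protein of 5-lipoxygenase, by 0.28 (adjusted p = 0.00013), while Alox5, the lipoxygenase itself, was at 0 counts in every cDC1 library. Ltb4r1, the leukotriene B4 receptor, fell by 0.51 (adjusted p = 0.025). In cDC2s with RIPK3 1 of 11 fell (9.09%, against 7.21% of all genes), the CC chemokine Ccl9, by 0.55 (adjusted p = 0.047, edgeR). There DESeq2 and limma on log2 CPM called 0 of the list, the other limma fits 1 each and the replicate block 2.

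The genes whose log2 CPM ran most like each member over all 17 libraries were read as a description, since the libraries share cell types and media. For Cxcl3 they were Hmox1 (r = 0.986), Wdr1 (0.986) and Exoc3 (0.977), of 7783 genes compared. For Cxcl2 they were Slc48a1 (r = 0.984), Tbcel (0.979) and Riok3 (0.978). For Ppbp they were Larp1b (r = 0.930), Glipr1 (0.928) and 2810402E24Rik (0.915), and for Pf4 Tomm5 (0.890), Dleu2 (0.882) and 2810402E24Rik (0.879). Cxcl1, with no more than 9 counts in any library, reached 0.659 at most.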

How the data were processed

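Raw counts per gene of 17 samples were deposited by the authors, who aligned paired reads of 54 bases with STAR 2.7.10a to GRCm39 and counted genes of an Ensembl annotation. A deposited table of normalized log2 values served as an alternative only. Of 31239 lines, 148 named no gene (0.0258 to 0.0366% of counts) and were left out, and 30854 of 31091 identifiers matched the annotation used for positions and exon lengths.

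Counts were tested with edgeR 4.0.16 in R 4.3.3 (TMM, robust quasi-likelihood, two-sided, Benjamini-Hochberg over all genes tested, threshold 0.05), keeping genes with counts above 0 in at least 50% of the samples of a fit. cDC1s (9 samples) and cDC2s (8) were fitted apart for media, and all 17 together between cell types. Tested on simulated data, the fits recovered most changed genes but made more false calls than the threshold allows, most in cDC2s. The study's own fit (limma 3.58.1 on log2(count + 1)) was an alternative, with limma on log2 CPM, limma on the deposited log2 values, DESeq2 1.42.0, RLE size factors, 2 filters, a replicate block and single libraries left out.

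Named were all members with each sample's value, the 3 most correlated genes, called list genes averaging at least 1 CPM in a group (up to 4 per list and comparison) and neighbours within 300 kb. Members and lists were chosen with earlier results of these data known. NF-kB was searched by its consensus. Replicate numbers appear to pair the samples: deviations from group means correlated above 0.1 in 16 of 16 same-numbered pairs within a cell type (median 0.355) and in 4 of 32 others (median -0.187), over 7784 genes. Across cell types it was 19 of 24 same-numbered pairs (median 0.21) and 5 of 48 others (median -0.101). The fits between cell types treat same-numbered samples as independent, except with the replicate block. Depth of 16095159 to 21645289 counts sets a floor of 3 counts per library, which covers counting error only.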

Additional observations from a re-analysis of the deposited data

Results flagged for a closer look

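Tests of whether the response to debris differed between the cell types singled out 7 genes of the pathway lists, given here as the log2 difference of cDC1s minus cDC2s with edgeR's adjusted p over 17 samples. With BimS against WT it was 1.47 for Fosl1 (adjusted p = 0.0065), 1.39 for Egr1 (adjusted p = 0.038) and 0.85 for Atf3 (adjusted p = 0.00031). It was -0.72 for Il6 (adjusted p = 0.00083), -0.49 for Sdc4 (adjusted p = 0.0033) and -0.39 for Nfkb1 (adjusted p = 0.0094). With RIPK3 against WT it was 1.32 for Fosl1 (adjusted p = 0.017), 0.67 for Atf3 (adjusted p = 0.0073), 0.42 for Jun (adjusted p = 0.022) and -0.72 for Il6 (adjusted p = 0.0012). Both comparisons share the WT libraries, and the fit treats same-numbered cDC1 and cDC2 samples as independent. Of all genes, 0.87% and 1.14% were called.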

How the results depend on the processing

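For RIPK3 against BimS in cDC1s, Cxcl2 was called with no filter (0.24, adjusted p = 0.0013, edgeR) and ran from 0.16 to 0.33 on leaving out single libraries. Cxcl3 was 0.51 with RLE size factors (adjusted p = 0.052) and 0.44 to 0.62 without single libraries. The replicate block brought calls for Cxcl2 in cDC1s (0.24) and for Pf4 (3.81) and Cxcl3 (0.29) in cDC2s, and changed no other call of a member. In cDC2s, where RIPK3 has no replicate 3, Ppbp with the block was 0.75 and not called. Without single libraries Ppbp in cDC2s ran from -0.29 to 0.19. Between cell types in WT medium, Ppbp was 2.11 and Pf4 0.91 by limma on log2(count + 1), 1.40 and 0.42 by limma on log2 CPM, and 1.47 and 0.47 by limma on the deposited values. Without single libraries they ran from -1.06 to 6.94 and from -1.89 to 3.55, the upper ends without cDC2 WT replicate 3, and Cxcl2 from 0.27 to 0.36. The difference of RIPK3 against BimS between cell types ran, without single libraries, from -0.40 to 0.067 for Ppbp and from -0.084 to 0.23 for Cxcl2, both called nowhere. Against WT in cDC1s, Pf4 was 3.11, 3.01 and 2.95 (BimS) and 2.72, 2.695 and 2.63 (RIPK3) by the same limma fits. By limma on log2(count + 1), with RIPK3, Cxcl2 was 2.92 in cDC1s and 3.17 in cDC2s, and Cxcl3 3.27 in cDC2s; Cxcl2 in cDC2s ran from 3.19 to 3.50 without single libraries. The cause of these shifts was not tested.

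Called list genes numbered 16 (BimS against WT) and 6 (RIPK3 against BimS) in cDC1s by limma on log2(count + 1). In cDC2s the replicate block called 39, 33 and 25 for BimS and RIPK3 against WT and RIPK3 against BimS, the last being 2 with filterByExpr and 2 by limma on log2(count + 1). Without single libraries these ran from 9 to 14, 9 to 19 and 0 to 4. The lowest counts were without cDC2 BimS replicate 2 (9), cDC2 RIPK3 replicate 2 (9), and either cDC2 RIPK3 replicate (0). Leaving out a cDC2 RIPK3 replicate leaves 1 library in that arm, which is then assumed to vary like the other groups. Over all genes, limma on log2(count + 1) called 1510 against 2576 for BimS against WT in cDC1s, and 403 against 810 for RIPK3 against BimS, where the block called 1730. In cDC2s the block called 4103 against 1349, 4126 against 1387 and 2755 against 73. Without single libraries, BimS against WT in cDC2s called 783 to 1504 (783, 896 and 878 without WT replicate 2 and BimS replicates 1 and 2), RIPK3 against WT 622 to 1819 (916 without WT replicate 2, 658 and 622 without RIPK3 replicates 1 and 2), and RIPK3 against BimS in cDC1s 489 to 1027 (489 without BimS replicate 3). For RIPK3 against BimS in cDC2s, DESeq2 called 141, filterByExpr 46, no filter 300, limma on log2(count + 1) 148, and leaving out single libraries 0 to 214. Cxcl1 had at most 9 counts in any library, and Pf4 at most 9 in the cDC2 libraries other than WT replicate 3.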
